A study of Mus musculus with 6 samples.

Results

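S100 proteins are small calcium-binding proteins, and 9 of their genes were followed here among the 55401 genes measured in bulk RNA of colonic lamina propria cells: S100a1, S100a4, S100a6, S100a8, S100a9, S100a10, S100a11, S100a13 and S100a16. They were chosen by family, with S100a8 and S100a9, the calprotectin pair, already known in these libraries to be lower with atorvastatin, so every difference between the groups in these 9 genes is given as a description without a test. The lamina propria is the connective tissue layer beneath the gut epithelium that holds most of its immune cells. All 6 libraries came from male Apc Min/+ mice aged 5 to 6 weeks; their Min allele shortens the tumour suppressor Apc, and such mice form intestinal adenomas. The 3 vehicle libraries came from mice gavaged with 2% Tween 80 and the 3 atorvastatin libraries from mice given the statin by gavage at 20 mg/kg on alternate days; statins block an early step of cholesterol synthesis. The length of treatment, and whether each library came from its own animal, are not stated in the labels, so the spread between libraries may be technical.

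Most S100 proteins bind calcium through a pair of EF-hand loops, open a hydrophobic face and then grip a target protein. They mostly act as calcium-dependent switches inside the cell. S100A8 and S100A9 form calprotectin, a heterodimer stored in the cytosol of neutrophils and monocytes, which sequesters zinc and manganese from microbes and, once released, acts as an alarm signal through TLR4 and the receptor RAGE. Calprotectin in stool is in clinical use as a marker of gut inflammation. S100A10 and S100A11 bind annexins at membranes, S100A4 binds non-muscle myosin and is common in fibroblasts, macrophages and lymphocytes, S100A6 binds CacyBP, and S100A13 takes part in the release of proteins that lack a signal peptide.

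All 9 genes lie on chromosome 3 of the mouse genome, in a pair of blocks. In mm10 coordinates as deposited, the first block runs from S100a1 (90511034 to 90514392, minus strand) through S100a13 (90514435 to 90524581), S100a16 (90537254 to 90543151), S100a4 (90603771 to 90606045), S100a6 (90612882 to 90624181) and S100a8 (90668978 to 90670035), all on the plus strand, to S100a9 (90692632 to 90695721, minus strand). The second block holds S100a11 (93520488 to 93526287) and S100a10 (93555080 to 93564643), both on the plus strand, and starts 2824766 bases beyond S100a9. S100a1 and S100a13 point away from each other with 42 bases between them. The calprotectin genes lie 22596 bases apart on opposite strands.

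The promoters of the 3 genes whose groups did not overlap, S100a4, S100a8 and S100a9, are shown as the 250 bases before the RefSeq start site (GRCm38.p6), 5′ to 3′ on the strand of the gene. Capitals mark matches to TATAAA, the letters that place many start sites, or to TTGCNNAA, a site form of C/EBP factors, found in them among 5 motifs searched on both strands; the others were TGANTCA for AP-1, TTCNNNGAA for STAT factors and an NF-kappaB motif.
S100a4 (chr3:90603520-90603769, plus strand): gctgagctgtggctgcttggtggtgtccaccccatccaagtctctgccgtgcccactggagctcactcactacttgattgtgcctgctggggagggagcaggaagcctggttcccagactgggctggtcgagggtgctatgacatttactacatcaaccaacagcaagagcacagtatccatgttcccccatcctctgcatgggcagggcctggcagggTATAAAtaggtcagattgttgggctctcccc
S100a8 (chr3:90668821-90669070, plus strand): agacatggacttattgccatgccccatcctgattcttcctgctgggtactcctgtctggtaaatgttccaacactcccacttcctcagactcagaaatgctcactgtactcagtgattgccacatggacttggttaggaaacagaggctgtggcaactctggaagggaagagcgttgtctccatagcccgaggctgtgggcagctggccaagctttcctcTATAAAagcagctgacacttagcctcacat
S100a9 (chr3:90695722-90695971, minus strand): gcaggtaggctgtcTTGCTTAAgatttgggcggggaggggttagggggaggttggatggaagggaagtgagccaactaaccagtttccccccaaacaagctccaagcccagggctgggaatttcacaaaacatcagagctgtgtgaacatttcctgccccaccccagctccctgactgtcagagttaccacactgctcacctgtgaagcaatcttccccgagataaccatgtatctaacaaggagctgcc
TATAAA stood 31 to 26 bases before the start in S100a4 and 30 to 25 bases before it in S100a8, and 12.4% of 32851 mouse promoters of this length held the letters. The C/EBP match of S100a9 lay 236 to 229 bases before its start, a motif present in 9.6% of the promoters. The RefSeq start of S100a8 is 93 bases downstream of the start in the GENCODE model, so the end of the printed stretch lies inside that longer transcript. RefSeq promoters were found for 8 of the 9 genes (9 promoters); the AP-1 letters were found in 2 of the 9, those of S100a11 and the inner S100a16 start (6.7% of all promoters). The NF-kappaB motif (1.4% of all promoters) and the STAT motif (7.0%) were found in 0 of the 9. The windows of S100a1 and S100a13 shared 104 bases. A match of letters is a description of the sequence and says nothing about binding in these cells.

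Values are FPKM, fragments scaled to gene length and to the size of the library, with library sums between 355787 and 456064. The deposited files give no fragment counts, but in genes with a single annotated transcript low values fell on regular steps, with 43.2% to 46.9% of values within 0.15 of a whole number of steps where an even spread gives 30%. The step was the best match within a preset range, which favours this share over 30% and limits the depths that could be found. If a step is 1 fragment, the libraries held about 16100000 to 21400000 fragments. Smaller steps in between were also seen, so these depths are estimates. Vehicle library 3 stood apart in short transcripts: over 534 protein-coding genes with transcripts under 1000 nt, its median deviation from the mean of the 6 libraries was 0.284 on the log2(FPKM + 1) scale, against -0.152 to 0.019 in the others. The annotated transcripts of the 9 S100 genes are 336 to 1127 nt long. Among lymphocyte markers Jchain, a gene of plasma cells, alone had 1396.69 to 4117.39 FPKM and the other 7 summed to 268 to 456 FPKM. Fibroblast markers summed to 1060 to 1440 FPKM and 10 epithelial markers to 21.8 to 48.0 FPKM.

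S100a11 was the most abundant member and S100a8 the least, over a range of levels from 400 to 0.965 FPKM (means of 6 libraries). S100a10 followed S100a11 at 122 FPKM, then S100a6 at 46.8, S100a4 at 33.8, S100a13 at 27.2, S100a16 at 19.9, S100a1 at 19.2 and S100a9 at 2.95 FPKM. By mean level S100a11 ranked 120 and S100a10 ranked 398 of the 13590 genes that reached 1 FPKM in 3 or more libraries, whereas S100a9 ranked 9530 and S100a8 ranked 13463. Between neighbours in this order, the higher gene was above the lower in 6 of 6 libraries for 5 of the 8 pairs: S100a11 over S100a10 (3.29-fold, geometric mean), S100a10 over S100a6 (2.68-fold), S100a13 over S100a16 (1.36-fold), S100a1 over S100a9 (7.25-fold) and S100a9 over S100a8 (3.31-fold). Each of these pairs had p = 0.0312 in the exact two-sided sign-flip permutation test over 6 libraries, the smallest that 6 libraries allow, and p = 0.05 after Benjamini-Hochberg adjustment over the 8 pairs, which is not below the threshold of 0.05. For the other neighbours the order was not the same in every library: S100a6 was above S100a4 in 5 of 6 (exact permutation p = 0.0938, adjusted 0.125), S100a4 above S100a13 in 4 of 6 (p = 0.125, adjusted 0.143) and S100a16 above S100a1 in 4 of 6 (p = 0.406, adjusted 0.406). The order of S100a4 and S100a13 was not alike in the groups: S100a4 was above in 3 of 3 vehicle libraries and in 1 of 3 atorvastatin libraries, where both means were 25.2 FPKM, and the pooled test counts this split as spread. FPKM divides by length, so these levels can be set side by side, though the lengths the authors used are not given.

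**Figure D1:**
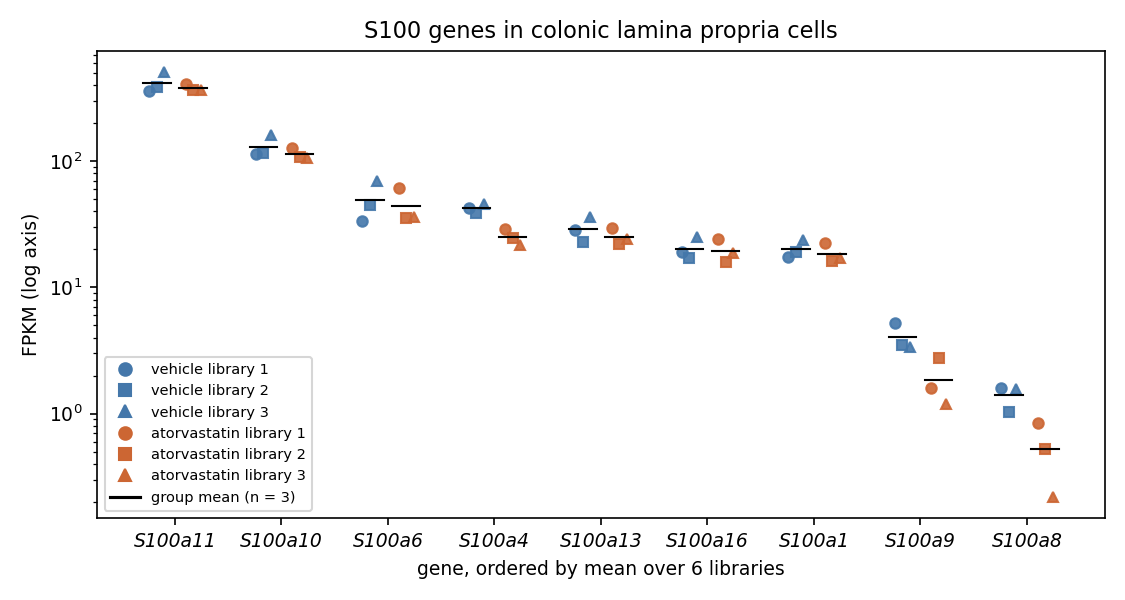
FPKM (log axis) of the 9 S100 genes in each of the 6 libraries, ordered by mean; points are libraries (colour gives the group, shape the library number) and bars are group means of 3 libraries. Levels span 0.22 to 509.86 FPKM, and the vehicle and atorvastatin points are apart in S100a4, S100a8 and S100a9 and overlap in the other 6 genes.

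Calprotectin was near the lower limit of what these libraries measured. S100a8 had 1.60, 1.03 and 1.58 FPKM in vehicle libraries 1 to 3 and 0.84, 0.52 and 0.22 FPKM in atorvastatin libraries 1 to 3. All 3 vehicle values were above all 3 atorvastatin values, with the narrowest gap between vehicle library 2 and atorvastatin library 1. With the step taken as 1 fragment and the annotated transcript lengths of 486 to 498 nt, these values rest on about 9.16 to 16.8 fragments in a vehicle library and about 2.07 to 7.83 in an atorvastatin library. The means were 1.40 ± 0.323 FPKM (SD, n = 3) in the vehicle group and 0.527 ± 0.310 (SD, n = 3) with atorvastatin, a 2.66-fold ratio, and the difference of log2(FPKM + 1) was -0.67 (SE 0.19, 95% interval -1.12 to -0.21). S100a8 passed the filter on low values only through the vehicle libraries, so a lower value with atorvastatin was favoured by that filter. Its difference was -1.37 with a pseudocount of 0.1 in place of 1. It was -0.42, with the groups still apart, once each library's trend with transcript length was taken out.

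S100a9, the partner subunit, had 5.21, 3.52 and 3.40 FPKM with vehicle and 1.60, 2.75 and 1.20 FPKM with atorvastatin. The groups did not overlap here either, and vehicle library 1 was the highest for both subunits and atorvastatin library 3 the lowest. The means were 4.04 ± 1.01 FPKM (SD, n = 3) and 1.85 ± 0.805 (SD, n = 3), a 2.19-fold ratio, with a difference of -0.84 (SE 0.23, 95% interval -1.39 to -0.29) on the log2(FPKM + 1) scale. With the trend with transcript length taken out the S100a9 difference was -0.60 and the groups overlapped, vehicle library 3 (1.76) lying below atorvastatin library 2 (2.07) on the log2 scale. About 33.0 to 43.5 fragments stood behind a vehicle value and 11.9 to 29.8 behind an atorvastatin value. The subunits did not keep a fixed proportion: the S100a9 to S100a8 ratio was 3.26, 3.42 and 2.15 with vehicle and 1.90, 5.29 and 5.45 with atorvastatin. The pair together made up 0.24% to 1.10% of the summed FPKM of the 9 genes.

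Of 15 markers of neutrophils, the cells that hold most calprotectin, 10 stayed below 1 FPKM in every library. Elane, which encodes neutrophil elastase, was listed at 0 in all 3 vehicle libraries and reached at most 0.11 FPKM with atorvastatin. Mpo, myeloperoxidase, had 0.15, 0.18 and 0.39 FPKM with vehicle and 0.16, 0.29 and 0.32 with atorvastatin, and Ly6g, a surface marker, had 0.10, 0.18 and 0.32 FPKM with vehicle and 0.00, 0.26 and 0.00 with atorvastatin. Csf3r, the receptor for G-CSF, had 0.96, 1.31 and 1.51 FPKM with vehicle and 1.17, 1.15 and 1.05 with atorvastatin, and its groups overlapped (difference -0.08, SE 0.13, limma adjusted p = 0.883). Cxcr2, the receptor for neutrophil chemokines, had 0.15, 0.26 and 0.10 FPKM with vehicle and 0.07, 0.10 and 0.08 with atorvastatin. These low values overlapped between the groups in Mpo, Ly6g and Csf3r. In Cxcr2 the groups met only at 0.10 FPKM, and no atorvastatin value was above any vehicle value. In Elane they met only at 0. Values of these 5 genes do not give the number of neutrophils. Over all 15 markers 12 had overlapping groups, counting groups that only met. The other 3 were lower in every atorvastatin library, as were 8.85% of all genes tested. Of the 3, Ltf, which encodes lactoferrin, was below the filter (0.30, 0.16 and 0.51 FPKM with vehicle, 0.06, 0.05 and 0.00 with atorvastatin) and was named after its values were seen.

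The S100a9 to Csf3r ratio was 5.43, 2.69 and 2.25 with vehicle and 1.37, 2.39 and 1.14 with atorvastatin, so vehicle library 3 fell below atorvastatin library 2 on this measure. Of 15 neutrophil markers 4 passed the filter, and 0 of these passed limma's test over all genes. All 4 had a negative difference, with a median of -0.23 against -0.02 over the 13590 genes tested, and 2 had an unadjusted p under 0.05, which 4.04% of genes tested reached in that direction. Those were Lcn2, lipocalin 2 (14.13, 12.98 and 23.66 FPKM with vehicle, 11.24, 9.41 and 10.13 with atorvastatin; limma adjusted p = 0.692), and Il1r2, the decoy receptor for IL-1 (16.51, 16.28 and 19.79, against 14.84, 13.71 and 11.92; limma adjusted p = 0.692). Without vehicle library 3 the Lcn2 difference was -0.37 in place of -0.63. Both genes are also expressed outside neutrophils. The other tested markers were Csf3r and Retnlg, the latter named after its values were seen, with 0.80, 9.98 and 6.23 FPKM with vehicle and 6.43, 2.31 and 3.57 with atorvastatin. Of 7 monocyte markers 5 were tested and 0 passed; 2 were lower and 1 was higher at an unadjusted p under 0.05, and their summed level was 283 to 325 FPKM with vehicle and 254 to 298 with atorvastatin. The summed level of the 15 neutrophil markers was 35.2 to 53.6 FPKM with vehicle and 28.2 to 35.4 with atorvastatin, and Lcn2 and Il1r2 had the highest levels in it. In bulk RNA, fewer cells of a type and less RNA per cell cannot be told apart, and the part of neutrophil or monocyte number in the calprotectin values was not tested. Of 10 epithelial markers 7 were tested, and all 7 had a negative difference, with a median of -0.55; 0 passed limma's test over all genes, 0 had an unadjusted p under 0.05 and 0 of the 7 had groups apart. Their summed level was 36.7, 45.7 and 48.0 FPKM with vehicle and 24.5, 47.0 and 21.8 with atorvastatin, so the groups overlapped. Krt20, below the filter and named after its values were seen, was apart, at 0.53 to 0.63 FPKM with vehicle and 0.03 to 0.18 with atorvastatin. Of 11 genes of the response to tissue dissociation 4 had higher values in every atorvastatin library than in any vehicle library, as did 5.53% of all genes tested. Of the 11, 0 passed limma's test over all genes and 1 was higher at an unadjusted p under 0.05, which 3.13% of all genes tested reached in that direction. Their summed level was 6020 to 6180 FPKM with vehicle and 6760 to 9360 with atorvastatin. The part of epithelial cells and of this response in the S100 values was not tested.

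**Figure D2:**
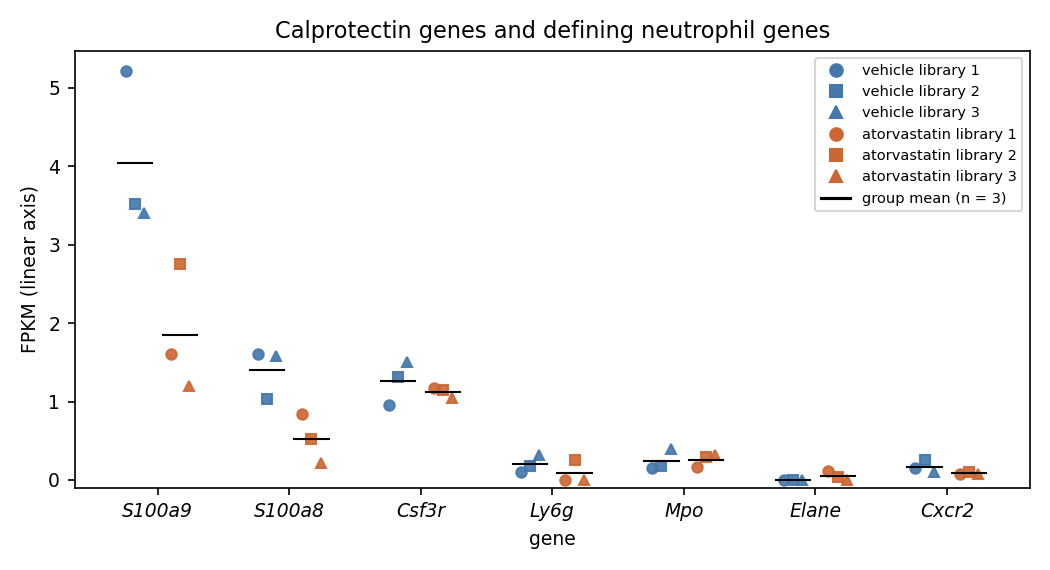
FPKM (linear axis) of S100a9, S100a8 and 5 of the neutrophil markers in each library. Points are libraries and bars are group means of 3 libraries. S100a9 and S100a8 are apart between the groups, while Csf3r, Ly6g, Mpo, Elane and Cxcr2 stay at or below 1.51 FPKM. The groups overlap in Csf3r, Ly6g and Mpo and only meet at a shared value in Elane and Cxcr2.

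S100a4 was the third gene whose groups did not overlap and by far the most abundant of the 3. It had 42.65, 38.76 and 45.76 FPKM with vehicle and 29.07, 24.82 and 21.85 FPKM with atorvastatin. The lowest vehicle value was 1.33 times the highest atorvastatin value, the widest such gap among the 9 genes. The means were 42.4 ± 3.51 FPKM (SD, n = 3) and 25.2 ± 3.63 (SD, n = 3), a 1.68-fold ratio, with a difference of -0.73 (SE 0.14, 95% interval -1.07 to -0.39). About 231 to 487 fragments stood behind a vehicle value and 142 to 271 behind an atorvastatin value, given transcripts of 336 to 498 nt. With the trend on transcript length removed the difference was -0.48 (SE 0.12) and the groups still did not overlap. The annotated gene Gm42674 shares exons with S100a4 and was listed at 0 in all 6 libraries; how reads shared by the pair were assigned is not stated.

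Among cell types that express S100a4, 0 of 8 fibroblast markers had groups that did not overlap, and their median difference was 0.10. The 9 macrophage markers tested had a median difference of 0.26; 1 had higher values in every atorvastatin library (also the 1 with an unadjusted p under 0.05), 0 were lower in all, and 0 passed limma's test over all genes. Of 8 lymphocyte markers, 4 had lower values in every atorvastatin library than in any vehicle library, with a median difference of -0.35, and 0 passed limma's test over all genes (3 at an unadjusted p under 0.05). The 7 lymphocyte markers other than Jchain summed to 390, 456 and 345 FPKM with vehicle and 293, 291 and 268 with atorvastatin, so this sum was apart between the groups, as was S100a4. The part of these cells in the S100a4 values was not tested. Over all genes tested 14.4% had groups that did not overlap, 8.85% with lower and 5.53% with higher values in the atorvastatin libraries, against 3 of the 9 S100 genes, all lower; since the pair S100a8 and S100a9 was chosen on this contrast, nothing is read from that count. Without atorvastatin library 1 the count was 5, with S100a1 and S100a10 added. After removal of the length trend 2 were lower (S100a4 and S100a8) and 1 higher (S100a11). The share over all genes was not computed in these settings, and groups separate more easily with fewer libraries. Nothing is read from these counts either. None of the 13590 genes tested passed limma's threshold at a false discovery rate of 0.05 (0, or 0.0%), while 974 (7.17%) had an unadjusted p under 0.05, 4.04% lower and 3.13% higher with atorvastatin. All 9 S100 genes had negative differences (3 of 9 with the length trend removed), with a median of -0.19 against -0.02 over all genes tested.

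S100a6, downstream of S100a4 on the same strand, varied most within the groups among the genes above 10 FPKM. It had 33.41, 45.15 and 69.19 FPKM with vehicle and 61.92, 35.24 and 36.18 FPKM with atorvastatin. The highest and the lowest value of all 6 were both vehicle libraries. The difference was -0.13 (SE 0.32, 95% interval -0.89 to 0.63), an interval that leaves a change of either sign possible. The S100a4 to S100a6 ratio was 1.28, 0.86 and 0.66 with vehicle and 0.47, 0.70 and 0.60 with atorvastatin, and the groups overlapped.

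The annexin partners S100a11 and S100a10 were the steadiest in proportion to each other. S100a11, which binds annexin A1, had 359.91, 385.27 and 509.86 FPKM with vehicle and 406.65, 368.89 and 368.63 FPKM with atorvastatin. Its lowest and highest values were again both vehicle libraries, and the difference was -0.12 (SE 0.19, 95% interval -0.58 to 0.34). S100a10, which joins annexin A2 in a heterotetramer at the plasma membrane, had 113.33, 115.69 and 162.56 FPKM with vehicle and 127.03, 107.61 and 105.36 FPKM with atorvastatin, a difference of -0.19 (SE 0.19, 95% interval -0.63 to 0.26). The ratio of S100a11 to S100a10 stayed between 3.14 and 3.50 in all 6 libraries. S100a11 alone made up 57.8% to 62.1% of the summed FPKM of the 9 genes. A processed pseudogene, S100a11-ps, was listed above 0 in 1 library at 0.30 FPKM.

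S100a13, S100a16 and S100a1, neighbours at the start of the first block, had similar levels and overlapping groups. S100a13 had 28.49, 23.08 and 36.21 FPKM with vehicle and 29.60, 21.97 and 24.03 with atorvastatin (difference -0.20, SE 0.19, 95% interval -0.66 to 0.27). S100a16 had 19.14, 16.96 and 24.88 FPKM with vehicle and 24.05, 15.81 and 18.74 with atorvastatin (-0.06, SE 0.20, 95% interval -0.53 to 0.42). S100a1, best known as a calcium sensor of muscle, had 17.30, 19.12 and 23.60 FPKM with vehicle and 22.31, 16.11 and 17.06 with atorvastatin (-0.11, SE 0.17, 95% interval -0.52 to 0.30). S100a1 and S100a13, which start from opposite strands of the same stretch, had a ratio of 0.61, 0.83 and 0.65 with vehicle and 0.75, 0.73 and 0.71 with atorvastatin.

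In the values as deposited, the 6 genes whose groups overlapped shared a pattern over libraries that did not follow the treatment. In each of S100a1, S100a6, S100a10, S100a11, S100a13 and S100a16, vehicle library 3 was the highest of the 6 libraries and atorvastatin library 1 the second. Their mean deviation from the 6-library average on the log2(FPKM + 1) scale was -0.12, -0.08 and 0.41 with vehicle and 0.20, -0.24 and -0.16 with atorvastatin. Summed smooth muscle markers were also highest in vehicle library 3 (1090 FPKM) and then atorvastatin library 1 (1030 FPKM), against 574 to 792 FPKM in the other 4 libraries. Acta2, Tagln, Cnn1 and Actg2 each had this order. Des was highest in atorvastatin library 1 (95.4 FPKM) and then vehicle library 3 (82.33 FPKM). Myh11 did not share the pattern, at 84.45, 70.55 and 81.11 FPKM with vehicle and 117.01, 104.08 and 105.58 with atorvastatin. These markers were named after their values were seen. Vehicle library 3 was the library with high values of short genes, whereas atorvastatin library 1 had a deviation of -0.001 there. After removal of the length trend, vehicle library 3 was the highest and atorvastatin library 1 the second in S100a10 alone. Atorvastatin library 1 was then the highest in S100a1, S100a6, S100a13 and S100a16, and atorvastatin library 3 in S100a11. Whether muscle content or transcript length has a part in the shared pattern was not tested. With the length trend removed the differences of these 6 genes lay between 0.01 for S100a13 and 0.13 for S100a11, all above 0, so the sign of their small differences rests on that choice. S100a11 then had higher values in all 3 atorvastatin libraries than in any vehicle library.

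**Figure D3:**
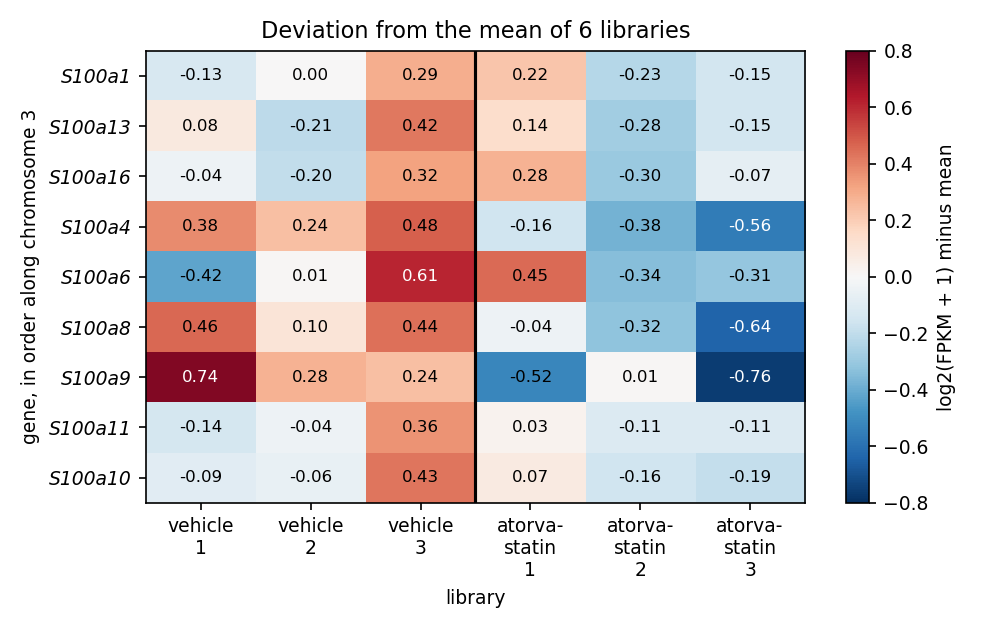
Deviation of log2(FPKM + 1) from the mean of 6 libraries for each S100 gene (rows, in order along chromosome 3) in each library (columns, vehicle left of the line); red is above and blue below the mean. S100a4, S100a8 and S100a9 are above their mean in all 3 vehicle libraries, while the other 6 genes peak in vehicle library 3 (0.29 to 0.61) and are also above their mean in atorvastatin library 1 (0.03 to 0.45).

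**Figure D4:**
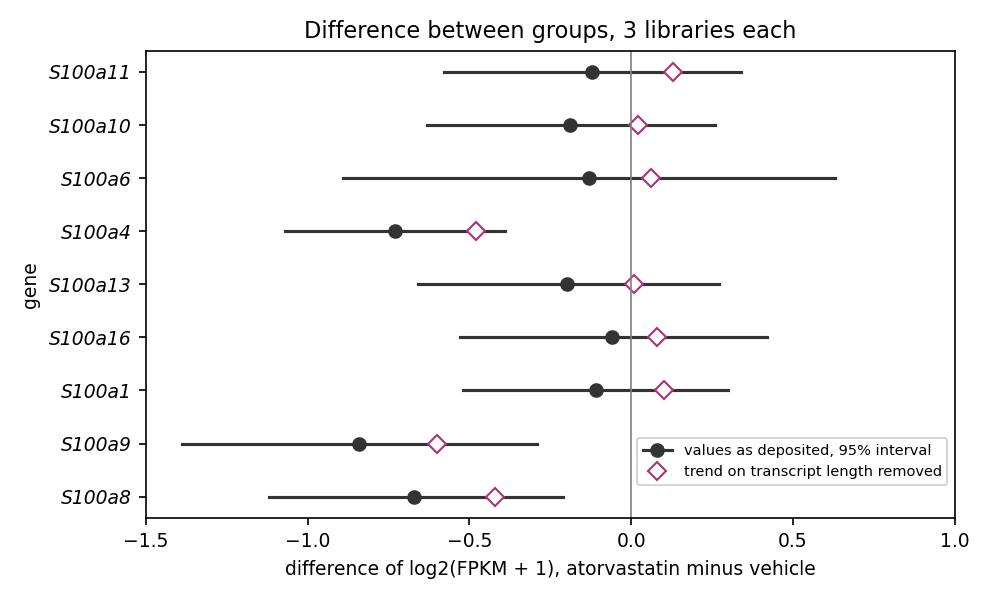
Difference of log2(FPKM + 1), atorvastatin minus vehicle, for each S100 gene: filled circles with 95% intervals from limma on the values as deposited (3 libraries a group), open diamonds with the transcript length trend taken out. S100a4, S100a8 and S100a9 lie at -0.73, -0.67 and -0.84, and the other 6 genes lie between -0.20 and -0.06 with intervals that span 0.

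Other S100 genes had at most 3.53 FPKM in any library, and the means of S100a7a (1.15 FPKM) and of the calprotectin gene S100a8 (0.965 FPKM) were close. Of 10 further genes with an S100 symbol, which include the pseudogene S100a11-ps and the binding protein S100pbp, 7 stayed below 1 FPKM in every library, and S100a5 and S100g were listed at 0 in all 6. S100b, the marker of glia, had 0.12 to 0.65 FPKM. S100a14, an epithelial member, had 1.01, 0.46 and 3.53 FPKM with vehicle and 0.37, 0.48 and 0.16 with atorvastatin, with the high value in vehicle library 3. S100a7a, an antimicrobial member that lies beside S100a8, had 0.26, 1.20 and 2.09 FPKM with vehicle and 1.29, 0.84 and 1.24 with atorvastatin (difference 0.05, SE 0.32, limma adjusted p = 0.978). It was lowest in vehicle library 1, the library where S100a8 and S100a9 were highest. S100pbp, a binding protein outside the family, had 2.01 to 3.51 FPKM (0.09, SE 0.21, limma adjusted p = 0.929).

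Genes for receptors of extracellular S100 proteins and for signalling proteins downstream of them were present at low to moderate levels. Of these 12 genes 0 passed limma's test over all genes. Tlr4, the receptor for calprotectin, had 2.67, 2.42 and 2.80 FPKM with vehicle and 2.49, 2.91 and 2.77 with atorvastatin (difference 0.04, SE 0.11, limma adjusted p = 0.944). Ager, which encodes RAGE, had 1.35, 1.32 and 1.72 FPKM with vehicle and 1.41, 1.10 and 1.63 with atorvastatin (-0.05, SE 0.14, limma adjusted p = 0.936). The most abundant of the list were Bsg, which encodes the S100A9 receptor basigin (53.84 to 100.02 FPKM), and Myd88, the adaptor downstream of TLR4 (52.73 to 74.65 FPKM). The median difference of the 12 genes was 0.03, and 1, Alcam (limma adjusted p = 0.692), had an unadjusted p under 0.05. Alcam was lower with atorvastatin, and 4.04% of all genes tested reached this in that direction. It was named after its value was seen.

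Among 17 intracellular and secretion partners 0 passed limma's test over all genes and 0 had an unadjusted p under 0.05, with a median difference of 0.02. Anxa2, the partner of S100A10, had 95.04, 100.86 and 123.12 FPKM with vehicle and 108.14, 87.76 and 89.70 with atorvastatin (-0.16, SE 0.16, limma adjusted p = 0.822), with -0.05 when vehicle library 3 was left out and -0.25 when atorvastatin library 1 was. As with S100a10, vehicle library 3 was the highest and atorvastatin library 1 the second. Myh9, the non-muscle myosin heavy chain bound by S100A4, had 62.04, 67.14 and 31.70 FPKM with vehicle and 60.53, 61.13 and 58.65 with atorvastatin (0.23, SE 0.28, limma adjusted p = 0.844). Its long transcript was low in vehicle library 3, where most of the short S100 transcripts were high. S100a9 was not, with its lowest vehicle value there (3.40 FPKM). Whether transcript length has a part in the Myh9 value was not tested. Cacybp, the partner of S100A6, had 19.66, 17.12 and 24.73 FPKM with vehicle and 16.01, 16.08 and 16.86 with atorvastatin (-0.30, SE 0.15, limma adjusted p = 0.696), with -0.16 when vehicle library 3 was left out. Il1a, whose product S100A13 helps to release, had 3.11 to 6.72 FPKM (0.12, SE 0.26, limma adjusted p = 0.916). The most abundant partner was Anxa5, at 117.01 to 189.86 FPKM.

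Of 12 genes for inducers of calprotectin 11 were tested and 0 passed limma's test over all genes, with a median difference of 0.02. Il1b, which encodes IL-1 beta, had 187.01, 149.98 and 179.19 FPKM with vehicle and 121.68, 144.10 and 121.25 with atorvastatin. The groups did not overlap (difference -0.41, SE 0.16), and the limma adjusted p was 0.692. Il1b was the 1 gene of the list with an unadjusted p under 0.05, which 4.04% of all genes tested reached in that direction. Il17a, below the filter and named after its values were seen, was also apart, at 0.80 to 1.03 FPKM with vehicle and 0.41 to 0.69 with atorvastatin. The groups of the other listed inducers overlapped, and 8.85% of all genes tested were lower in every atorvastatin library. Stat3, a transcription factor downstream of IL-6, had 69.30 to 87.04 FPKM (0.02, SE 0.14, limma adjusted p = 0.975).

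Calcium sensors outside the S100 family, listed as a comparison, had 9 of 12 members tested, of which 0 passed limma's test over all genes, and a median difference of -0.13. Calr, which encodes calreticulin, the calcium buffer of the endoplasmic reticulum, had 170.24 to 211.96 FPKM (0.07, SE 0.16, limma adjusted p = 0.921). Calm2, a calmodulin gene, had 143.33, 126.23 and 223.83 FPKM with vehicle and 164.25, 128.80 and 146.43 with atorvastatin (-0.13, SE 0.24, limma adjusted p = 0.905; 0.12 without vehicle library 3), with vehicle library 3 the highest and atorvastatin library 1 the second, as in 6 of the S100 genes. Pdcd6 was the 1 gene of this list with an unadjusted p under 0.05 (limma adjusted p = 0.692) and was named after its value was seen. It was lower with atorvastatin, and 4.04% of all genes tested reached this in that direction.

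Over the 6 libraries, the genes most like S100a8 by Pearson's r of log2(FPKM + 1), among 5755 genes of similar spread, were Gm11361 (0.995), Oard1 (0.987) and the ribosomal pseudogene Rps18-ps3 (0.985). Those most like S100a9, among 3607 genes of similar spread, were Sst, which encodes somatostatin (0.991), Zfp148 (0.973) and Tomm6 (0.947). Spearman's rho was 0.943 or 1.0 for each of these 6 genes, and 83 genes had an r over 0.9 with S100a8 and 11 with S100a9. Each of these 6 genes was also lower in every atorvastatin library than in any vehicle library. The calprotectin pair was chosen on this contrast, so r cannot be read apart from it. All points come from the same 6 libraries, which share depth and composition, so the order of genes is a description only.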

How the data were processed

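The 3 vehicle and 3 atorvastatin RNA libraries were deposited by the authors as FPKM, per the file headers; FastQC 0.11.2, Bowtie and mouse build mm10 are named in the submitters' processing notes, while no source used here names the quantifier, the annotation or the strand. GENCODE mouse release 21 gave symbols and transcript lengths; 51957 IDs had identical positions there, and 260 IDs had no symbol. The 9 members, the gene lists and the tests were chosen with earlier results of these data known.

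The 13590 genes that reached 1 FPKM in 3 or more libraries were fitted on log2(FPKM + 1), which understates changes of low genes, with limma 3.58.1 (limma-trend, R 4.3.3), adjusted by Benjamini-Hochberg at 0.05; the fit was tested on simulated data. Neighbours by level, in the order of their means over these same libraries, were compared by exact sign flips. The length trend was a lowess fit per library on protein-coding genes. Depth was estimated from the steps of FPKM times length in genes with a single transcript. Steps were sought within a preset range, and the method was added after the data were seen. Genes were named by rule: the members, other S100 genes at 1 FPKM or more, set partners and neutrophil genes, the 2 most abundant of each list of the S100 system, and the 3 most like each calprotectin gene; the other marker lists are given as sums and counts. Of 156 listed genes 155 were found. Promoters came from RefSeq GRCm38.p6. Protein sequences were not used here.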

Additional observations from a re-analysis of the deposited data

How the results depend on the processing

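The differences of S100a4, S100a8 and S100a9 stayed below 0 in all 12 alternatives run for each. They lay between -0.83 and -0.48, -1.37 and -0.42, and -1.14 and -0.60. The alternatives were other pseudocounts, scalings, the length trend, the replicate block and single libraries left out. As the groups of these 3 genes did not overlap, pseudocounts, the block and left-out libraries could not turn the sign. Only the scalings and the length trend could. Values that moved by more than the spread between libraries were S100a8 with a pseudocount of 0.1 (-1.37) or 0.5 (-0.92), and S100a4 (-0.48) and S100a11 (0.13) with the length trend removed. With single libraries left out the differences ranged from -0.25 to 0.01 for S100a1, -0.39 to 0.14 for S100a6, -0.28 to -0.02 for S100a10, -0.22 to 0.03 for S100a11, -0.35 to -0.04 for S100a13 and -0.21 to 0.09 for S100a16. The number of S100 genes whose groups did not overlap, an outcome whose alternatives were all chosen after seeing the data, was 3 to 5 with single libraries left out; it was 5 without atorvastatin library 1, where S100a1 and S100a10 joined, and the same 3 genes under both scalings. With the length trend removed 3 genes were also apart, but S100a9 left and S100a11, higher with atorvastatin, joined. The share of all genes whose groups were apart was not computed in these settings, so these counts have no background beside them. Neighbours in order in every library numbered 5 to 6 of 8. The genes past limma's threshold over all genes numbered 4 with array weights and 0 to 3 with single libraries left out (1 without atorvastatin library 1 and 3 without atorvastatin library 3), and 0 otherwise; the cause was not tested.

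The replicate numbers did not pair the libraries (correlation of deviations -0.109, 0.137 and -0.015 for numbers 1 to 3), and with the replicate block 0 genes passed the threshold; in this balanced design the block cannot change a difference of group means. The number of genes at an unadjusted p under 0.05, 974 in the fit as reported, was 456 with equal sums per library, 1761 with no filter and 3413 with array weights, and 475 to 1161 with single libraries left out (550 without atorvastatin library 1, 475 without atorvastatin library 3). Differences of genes outside the 9 that changed sign ranged, with single libraries left out, from -0.07 to 0.38 for Il1a (-0.01 without atorvastatin library 3), -0.01 to 0.08 for Tlr4, -0.13 to 0.04 for Ager (0.02 without vehicle library 3), -0.10 to 0.43 for Myh9, -0.30 to 0.34 for S100a7a (-0.01 without atorvastatin library 1), -0.03 to 0.26 for S100pbp (-0.01 without atorvastatin library 3), -0.03 to 0.24 for Myd88, -0.01 to 0.29 for Anxa5, -0.06 to 0.10 for Stat3 (-0.04 without atorvastatin library 1) and -0.30 to 0.12 for Calm2. Without vehicle library 3, Lcn2 (-0.37), Cacybp (-0.16), Anxa2 (-0.05) and Bsg (-0.06) also came closer to 0 by over 1.5 times, and Bsg was -0.50 without vehicle library 1. With an estimated 2.07 to 16.8 fragments behind each S100a8 value, depth limits the precision of its fold.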
